A study of Mus musculus with 9 samples.

Results

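The TNF superfamily was examined by RNA-Seq in mouse pulmonary endothelial cells (ECs) and in MC3T3 osteoblasts that were either controls or treated with SB216763. The members are all protein-coding genes whose symbol starts with Tnfsf or Tnfrsf, together with Tnf, Lta, Ltb, Fas, Fasl, Ltbr, Cd40, and Ngfr, and they number 40 of the 50686 genes in the deposited table. Of these, 15 encode ligands, 24 encode receptors, and 1, Tnfsfm13, is a readthrough gene that joins Tnfsf12 and Tnfsf13. The controls were MC3T3-E1 cells, a mouse osteoblast line from calvaria, and the treated cells of the same line received 10 μM SB216763, an inhibitor of the GSK3 kinases, for 14 days. The ECs came from mouse lung and were isolated by FACS. There were 3 libraries in each of the 3 groups. The time in culture of the controls and the age and strain of the mice are not given in the sources used here, and nothing says that the 3 libraries of a group came from separate cultures or animals, so the p-values measure only the spread between these libraries.

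TNF superfamily ligands are mostly trimeric proteins on the cell surface that can be shed, and they act by clustering their receptors. Receptors with a death domain can recruit FADD or TRADD and start cell death or NF-κB signaling, and the others recruit TRAF adaptor proteins. Decoy receptors bind a ligand and pass on no signal. In bone, osteoblast-lineage cells control osteoclast formation through RANKL (Tnfsf11), its receptor RANK (Tnfrsf11a) on osteoclast precursors, and the secreted decoy osteoprotegerin (OPG, Tnfrsf11b). ECs respond to TNF and related ligands with expression of adhesion molecules.

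The depth was between 30990107 and 68946333 counts per library. Levels are given as CPM, counts scaled to the library total after adjustment of the libraries by the TMM method, and levels of different genes are compared only as CPM per kb of exon. Genes with 3 counts or fewer lay at or under the floor of a library, where the depth shows no level. This floor was between 0.0473 and 0.104 CPM and covers counting error only. Members passed the test when the Benjamini-Hochberg adjusted p of the quasi-likelihood test in edgeR, fitted over 15531 genes, lay under 0.01, and they passed the fold threshold when the absolute log2 fold change was also at least 2. The labels were checked against marker genes. The summed level of 5 endothelial markers (Cdh5, Pecam1, Kdr, Tie1, and Nos3) was between 5859 and 6019 CPM in ECs and no more than 3.06 CPM in any MC3T3 library, treated ones included. The sum of 5 osteoblast markers (Sp7, Runx2, Col1a1, Ibsp, and Alpl) went from between 20090 and 28680 CPM in the controls to between 2824 and 2973 CPM after treatment, and was at most 38.3 CPM in ECs. A sum of 4 mural and fibroblast markers (Pdgfra, Pdgfrb, Rgs5, and Cspg4) went from between 285 and 348 CPM to between 809 and 826 CPM with treatment. Most of this sum was Pdgfrb, which went from 253.5 ± 20.97 to 746 ± 7.84 CPM, while Cspg4 went the other way, from 33.2 ± 9.26 to 3.14 ± 0.462 CPM (SD, n = 3), and Rgs5 had no more than 8 counts in any library. These marker levels moved with every comparison of treated and control cells described here, and their part in the results was not tested. In bulk libraries, fewer cells of a type and less RNA per cell cannot be told apart.

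Receptors made up nearly all of the superfamily transcripts in each group, and ligands were scarce. In the controls, the receptors summed to 465 ± 14.7 CPM per kb and the ligands to 6.24 ± 0.308 CPM per kb, in treated osteoblasts the ligands summed to 10.7 ± 0.361 CPM per kb, and in ECs to 7.69 ± 0.358 CPM per kb (SD, n = 3). More than 3 counts in every library of a group were found for 17 of 24 receptors in the controls, 17 in treated osteoblasts, and 17 in ECs. For the ligands, this number was 2 of 15 in the controls, 3 in treated osteoblasts, and 7 in ECs. Tnf, the ligand that names the family, Tnfsf14 (LIGHT), and Tnfrsf13b (the BAFF and APRIL receptor TACI) had 0 counts in all 9 libraries. A further 5 members, namely Fasl, Tnfrsf8, Tnfsf11, Tnfsf4, and Tnfsf8, had no more than 3 counts in any library. In total, 16 members had more than 3 counts in all 9 libraries, and these were 13 receptors, the ligands Tnfsf12 and Tnfsf13, and the readthrough gene.

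**Figure D1:**
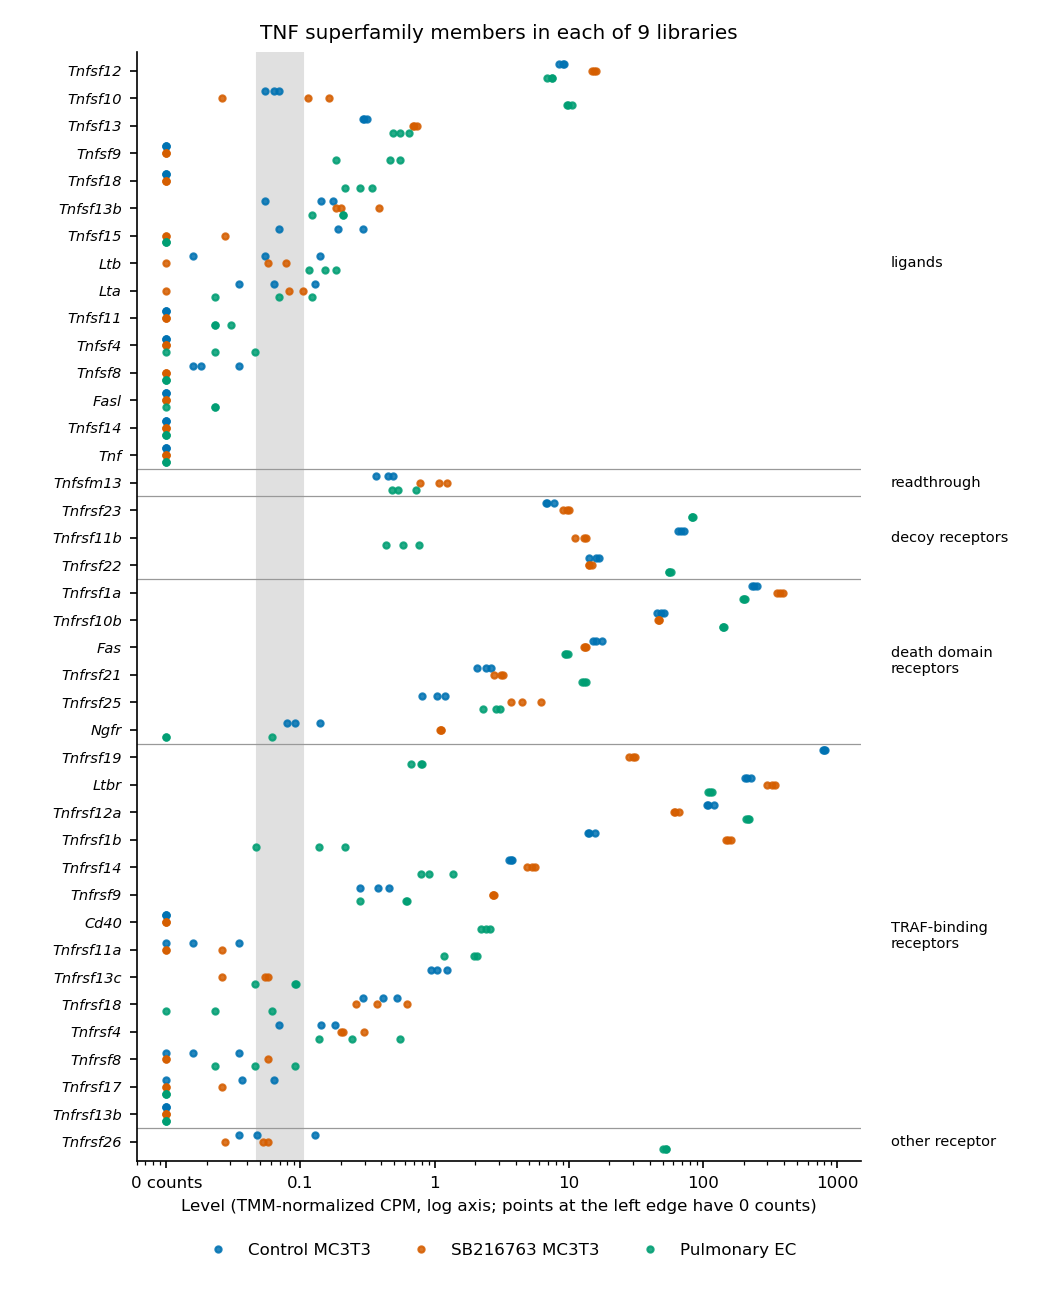
Levels of the 40 members in the 9 libraries, in TMM-normalized CPM on a log axis, grouped by role. Each point is 1 library, points at the left edge had 0 counts, and the gray band spans the floor of 3 counts over the libraries, from 0.0473 to 0.104 CPM. Tnfrsf19 lies between 786 and 805 CPM in the controls, and most ligands lie at or under the band in MC3T3 cells.

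The RANKL system was represented in MC3T3 cells by its decoy alone. Tnfsf11 (RANKL; chromosome 14, 78277445 to 78308043 in GENCODE M21 on GRCm38) had 0 counts in each of the 6 MC3T3 libraries and 1 count in each of the 3 EC libraries. A level of up to 0.104 CPM is allowed by the floor of the shallowest of these MC3T3 libraries, so RANKL was not detectable at this depth in either osteoblast group. A ratio of RANKL to OPG could therefore not be formed.

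Tnfrsf11b, which encodes OPG (chromosome 15, 54250619 to 54278484), was at 71.6, 68.8, and 65.5 CPM in the control libraries. It was at 12.9, 13.3, and 11.1 CPM in the treated libraries and at 0.435, 0.579, and 0.765 CPM in ECs. The 3 groups did not overlap, and the order was control, treated, EC. OPG expression fell by 2.47 on the log2 scale with treatment (standard error 0.07, edgeR-adjusted p = 4.39e-14). Control osteoblasts exceeded ECs by a log2 fold change of 6.85, and treated osteoblasts exceeded ECs by 4.38 (edgeR-adjusted p = 1.12e-17 and 3.36e-14). OPG is known as a gene that β-catenin, which GSK3 marks for degradation, can induce in osteoblasts.

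Tnfrsf11a (RANK; chromosome 1, 105780718 to 105847981) had 1, 0, and 1 counts in the controls and 0, 1, and 0 counts after treatment, at or under the floor. In ECs it was at 2.06, 1.95, and 1.18 CPM, all above every MC3T3 library. The EC level was 126 times that of the controls by total counts, with a 95% counting interval of 34.5 to 1048, and the edgeR test gave an adjusted p of 4.07e-09. Among 4 osteoclast markers, Ctsk alone was above the floor in every MC3T3 library and Calcr had 0 counts in all 9 libraries.

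In the comparison of treated with control osteoblasts, 24 of the 40 members could be tested. The other 16 members, 12 of them ligands, did not pass the filter on low counts. A member can pass that filter through its level in a single group, so the number tested is not a share of the family that responds. Of those tested, 11 members were higher after treatment and 5 were lower, while 8 did not pass. Over all genes tested, 32.9% were higher and 32% were lower, and the members' shares were 45.8% and 20.8%. At the fold threshold, 4 members were higher and 3 were lower, against 3.81% and 5.84% of all genes. All 7 of these members are receptors, as are 20 of the 24 members tested. Among the 7, Tnfrsf13c passed the filter only through its control level and Ngfr only through its treated level. Both of these calls were therefore nearly fixed in advance. The median log2 fold change was 0.38 over the members tested and 0.01 over all genes.

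**Figure D2:**
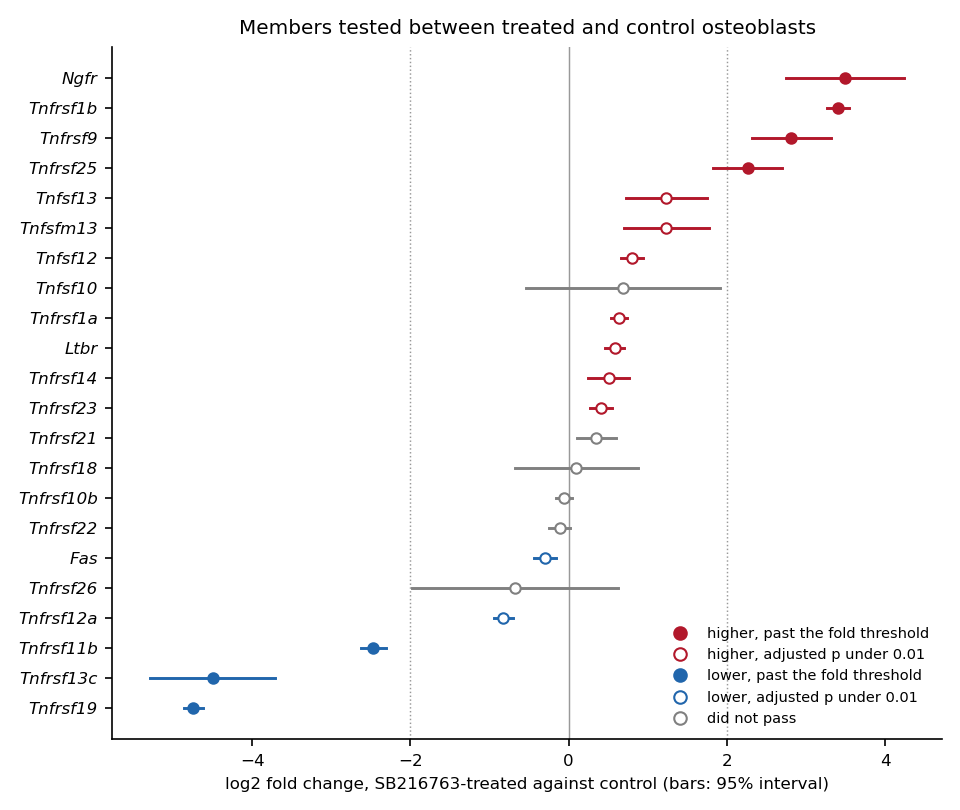
Log2 fold changes of 22 members between SB216763-treated and control osteoblasts, with 95% intervals from edgeR's quasi-likelihood fit. Filled points passed the fold threshold and open colored points passed the test alone; 2 tested members at or under the floor in both groups are not drawn. Tnfrsf19 lies lowest at -4.74 and Ngfr highest at 3.50.

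Tnfrsf19 (TROY, an orphan receptor that binds TRAF proteins; chromosome 14, 60963875 to 61046490) had the lowest log2 fold change among the 24 members tested. It was at 804.5, 797, and 786 CPM in the control libraries and at 30.9, 30.2, and 28.1 CPM in the treated libraries. In ECs it was at 0.664, 0.792, and 0.811 CPM. The groups lay far apart, and the spread within each was small. The log2 fold change was -4.74 between treated and control osteoblasts (standard error 0.06, edgeR-adjusted p = 6.38e-18) and 10.04 between control osteoblasts and ECs (edgeR-adjusted p = 1.63e-20). Treated osteoblasts were still above ECs, by a log2 fold change of 5.30 (edgeR-adjusted p = 8.01e-18).

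Tnfrsf13c, which encodes the BAFF receptor of B cells (chromosome 15, 82221743 to 82224369), was the third receptor lower past the fold threshold, at a low level. It was at 1.24, 1.04, and 0.938 CPM in the controls and had 2, 1, and 2 counts after treatment. EC libraries held 2, 3, and 4 counts. Control libraries lay above all others, and the treated and EC libraries overlapped. By total counts the control level was 24.35 times the treated level, with a 95% counting interval of 10.2 to 76.0 (edgeR-adjusted p = 1.82e-08). The gene passed the filter on low counts only through its control level, so this call was nearly fixed in advance. Its ligand Tnfsf13b (BAFF) had between 3 and 14 counts in each MC3T3 library.

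Tnfrsf1b, the second TNF receptor (TNFR2; chromosome 4, 145213463 to 145246870), rose with treatment. It was at 13.9, 15.6, and 14.0 CPM in the controls and at 154, 161, and 149 CPM in the treated libraries. In ECs it had 6, 7, and 2 counts, or 0.132 ± 0.0835 CPM (SD, n = 3). Every treated library was above every control library, and every control library was above every EC library. The log2 fold change was 3.41 between treated and control osteoblasts (standard error 0.07, edgeR-adjusted p = 3.21e-16) and 10.23 between treated osteoblasts and ECs (edgeR-adjusted p = 4.23e-19). With treatment, this gene moved away from the EC level.

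Tnfrsf1a, the widely expressed TNF receptor with a death domain (TNFR1), was at 241, 251, and 229.7 CPM in the controls and at 374.5, 391, and 357 CPM after treatment. It was at 198, 203, and 206 CPM in ECs, below all MC3T3 libraries. The increase with treatment was 0.64 on the log2 scale (standard error 0.05, edgeR-adjusted p = 8.14e-09), smaller than that of Tnfrsf1b. Scaled to exon length, the level of Tnfrsf1a was 24.5 ± 1.015 times that of Tnfrsf1b in the controls and 3.57 ± 0.0287 times in treated osteoblasts (SD, n = 3).

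3 further receptors rose past the fold threshold from low control levels. Ngfr (p75NTR, the low-affinity neurotrophin receptor; chromosome 11, 95568818 to 95587735) had 5, 5, and 4 counts in the controls and was at 1.12, 1.095, and 1.12 CPM after treatment. Tnfrsf9 (4-1BB, a costimulatory receptor of T cells; chromosome 4, 150914562 to 150946102) was at 0.378, 0.455, and 0.278 CPM in the controls and at 2.72, 2.71, and 2.75 CPM after treatment. Tnfrsf25 (DR3, the death domain receptor for TL1A; chromosome 4, 152115934 to 152120119) was at 0.803, 1.18, and 1.04 CPM in the controls and at 4.47, 3.73, and 6.18 CPM after treatment. For each of the 3 genes, all treated libraries were above all control libraries and all EC libraries. The log2 fold changes between treated and control osteoblasts were 3.50 for Ngfr, 2.82 for Tnfrsf9, and 2.26 for Tnfrsf25 (standard errors 0.35, 0.23, and 0.20, edgeR-adjusted p = 1.84e-07, 1.89e-08, and 5.28e-08). In ECs, Tnfrsf9 was at 0.502 ± 0.194 CPM and Tnfrsf25 at 2.73 ± 0.396 CPM (SD, n = 3), while Ngfr had 0, 2, and 0 counts. Ngfr passed the filter on low counts only through its treated level, so its call as higher was nearly fixed in advance.

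**Figure D3:**
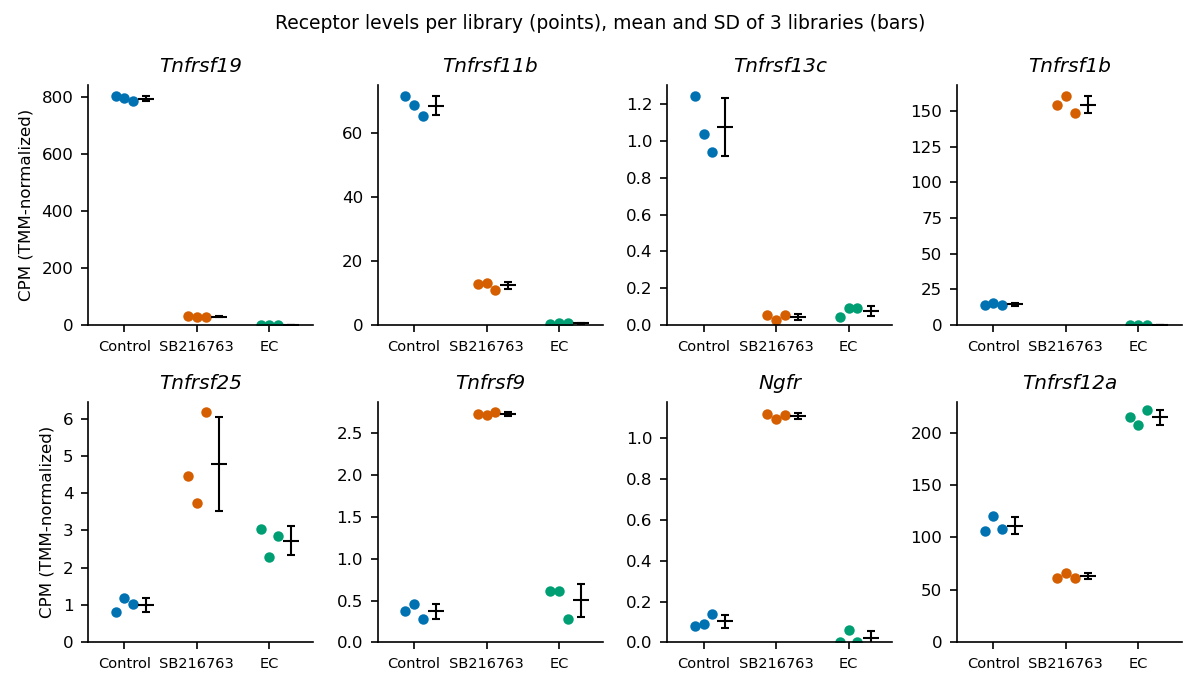
TMM-normalized CPM of 8 receptors in the 9 libraries (points), with the mean and SD of the 3 libraries of a group beside them; each panel has its own axis from 0. Tnfrsf19, Tnfrsf11b, and Tnfrsf13c are highest in the controls, Tnfrsf1b, Tnfrsf25, Tnfrsf9, and Ngfr in the treated osteoblasts, and Tnfrsf12a in ECs, at 207 to 221 CPM.

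Start-site sequences are shown for Tnfrsf19, which fell, and for Tnfrsf1b and Tnfrsf9, which rose. RefSeq sequences on GRCm38.p6 were found for 32 of the 40 members, with 36 start sites, and the 250 bases before each start were searched on both strands for CTTTGAT, a core of the motif of the TCF/LEF factors that partner β-catenin, and for a form of the NF-κB motif. Capitals mark matches.
Tnfrsf19, chr14:61037988-61038237, minus strand: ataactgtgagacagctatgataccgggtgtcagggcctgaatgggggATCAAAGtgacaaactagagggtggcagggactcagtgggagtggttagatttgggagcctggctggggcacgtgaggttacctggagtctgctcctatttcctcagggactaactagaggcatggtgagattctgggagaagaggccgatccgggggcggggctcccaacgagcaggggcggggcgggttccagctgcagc
Tnfrsf19, chr14:61046856-61047105, minus strand: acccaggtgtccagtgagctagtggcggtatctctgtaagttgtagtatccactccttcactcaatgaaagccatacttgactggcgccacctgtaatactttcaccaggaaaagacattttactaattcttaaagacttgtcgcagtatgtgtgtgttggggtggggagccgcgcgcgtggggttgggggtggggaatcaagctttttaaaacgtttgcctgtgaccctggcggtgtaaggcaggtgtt
Tnfrsf1b, chr4:145246871-145247120, minus strand: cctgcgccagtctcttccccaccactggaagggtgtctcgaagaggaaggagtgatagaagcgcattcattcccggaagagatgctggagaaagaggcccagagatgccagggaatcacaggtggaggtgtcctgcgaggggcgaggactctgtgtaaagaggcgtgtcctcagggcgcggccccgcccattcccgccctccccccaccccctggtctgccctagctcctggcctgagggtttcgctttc
Tnfrsf9, chr4:150919905-150920154, plus strand: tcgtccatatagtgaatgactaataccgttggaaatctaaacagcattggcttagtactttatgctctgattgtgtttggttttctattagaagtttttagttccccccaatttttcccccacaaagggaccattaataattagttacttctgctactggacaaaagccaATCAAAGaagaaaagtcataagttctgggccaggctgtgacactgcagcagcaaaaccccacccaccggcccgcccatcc
Tnfrsf9, chr4:150927749-150927998, plus strand: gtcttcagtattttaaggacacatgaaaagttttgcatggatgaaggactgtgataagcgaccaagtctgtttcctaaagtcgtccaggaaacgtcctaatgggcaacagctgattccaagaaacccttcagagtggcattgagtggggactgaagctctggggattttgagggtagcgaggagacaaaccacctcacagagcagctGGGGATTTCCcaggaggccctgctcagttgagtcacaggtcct
The TCF/LEF letters were found at 2 of the members' 36 start sites, 1 of Tnfrsf19 and 1 of Tnfrsf9, and at 3.21% of 32851 start sites of all genes. Of these receptors, Tnfrsf19 fell with treatment and Tnfrsf9 rose. The NF-κB letters were found at 3 of the 36, 1 each of Ltb, Tnfrsf25, and Tnfrsf9, and at 1.41% of all start sites. The window of Tnfrsf1b held neither. The matches are letters in these windows and were not tested as binding sites.

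5 further receptors passed the test below the fold threshold between treated and control osteoblasts. Tnfrsf12a (Fn14, the TWEAK receptor) was at 106, 120.2, and 108 CPM in the controls and at 61.6, 66.3, and 61.2 CPM after treatment, with no overlap. Its expression fell by 0.82 on the log2 scale (standard error 0.05, edgeR-adjusted p = 1.32e-09). Fas, which triggers caspase-dependent death when bound by Fas ligand, fell by 0.30 on the log2 scale, from 16.2 ± 1.21 to 13.2 ± 0.207 CPM (SD, n = 3). When libraries were scaled by their size only, which moved the median of all genes to 0.22, the log2 fold change of Fas was -0.10 and no longer passed. Ltbr (the lymphotoxin β receptor), Tnfrsf14 (HVEM, a receptor for LIGHT), and Tnfrsf23 (a decoy for TRAIL) rose, with log2 fold changes of 0.58, 0.51, and 0.41. Ltbr went from 216 ± 11.9 to 323 ± 19.9 CPM (SD, n = 3), and without treated replicate 2 the call of Tnfrsf14 was lost (log2 fold change 0.45, edgeR-adjusted p = 0.0102).

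For the members that did not pass, the intervals differed in width. Tnfrsf10b, the TRAIL receptor of mice, was at 48.5 ± 2.63 CPM in the controls and 46.7 ± 0.531 CPM after treatment (SD, n = 3), with a log2 fold change between -0.16 and 0.04 at 95% confidence; with scaling by library size only, the value was 0.15 and passed the test as higher. Tnfrsf22, another TRAIL decoy, had an interval of -0.25 to 0.02, and without control replicate 2 it passed as lower with -0.19 (edgeR-adjusted p = 0.00899). Tnfrsf21 (DR6, a death domain receptor) had a value of 0.35 (edgeR-adjusted p = 0.0129). It passed without control replicate 1 at 0.46, without treated replicate 1 at 0.41, with scaling by library size only at 0.56, and with upper-quartile normalization at 0.37. Tnfrsf18 (GITR, of regulatory T cells) was at 0.407 ± 0.115 and 0.420 ± 0.187 CPM (SD, n = 3), with an interval of -0.68 to 0.88 that also holds changes of a moderate size. Its exons overlap those of an antisense gene.

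TWEAK and APRIL were the ligands with counts above the floor in all 9 libraries. Tnfsf12 (TWEAK; chromosome 11, 69686250 to 69695849) was at 8.41, 9.03, and 9.20 CPM in the controls, at 15.3, 16.0, and 14.9 CPM after treatment, and at 7.44, 6.88, and 7.48 CPM in ECs. The groups did not overlap. It rose by 0.80 on the log2 scale with treatment (standard error 0.07, edgeR-adjusted p = 1.56e-08), while its receptor Tnfrsf12a fell. Tnfsf13 (APRIL) was at 0.301 ± 0.01075 CPM in the controls and 0.709 ± 0.0241 CPM after treatment (SD, n = 3), a log2 fold change of 1.24 (edgeR-adjusted p = 2.47e-04). The readthrough gene Tnfsfm13 rose by 1.23. Of the exon length of Tnfsf13, 60.05% is shared with Tnfsfm13 on the same strand and 13.5% with an antisense gene, so the counts of Tnfsf12, Tnfsf13, and Tnfsfm13 are uncertain. Scaled to exon length, TWEAK made up between 93.5% and 95.2% of the summed ligand level of each MC3T3 library, and between 61.4% and 63.6% of that of each EC library.

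The other ligands and the untested receptors were near the floor in MC3T3 cells. Tnfsf15 (TL1A, the ligand of DR3) had 12, 16, and 2 counts in the controls and 0, 0, and 1 counts after treatment. The control level was 22.4 times the treated level by total counts, with a 95% counting interval of 3.73 to 914, and the gene did not pass the filter on low counts. In the fit with no filter it was called past the fold threshold, which made 8 such members in place of 7. Its receptor Tnfrsf25 rose, as given above. Among receptors near the floor, Tnfrsf4 (OX40) had 9, 10, and 2 counts in the controls, 7, 8, and 11 after treatment, and 6, 8, and 24 in ECs. Tnfrsf17 (BCMA, a receptor for APRIL) had 4, 2, and 0 counts in the controls and 0, 1, and 0 after treatment, a ratio of 4.48 with a 95% counting interval of 0.544 to 206, and 0 counts in ECs. Neither receptor was tested. Lta and Ltb, the lymphotoxins, had no more than 7 counts in any MC3T3 library. Lta, Tnf, and Ltb lie side by side within 10.9 kb of chromosome 17.

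The make-up of the receptor transcripts differed between the groups when levels were scaled to exon length. In the controls, Tnfrsf19 was first with between 35.0% and 36.8% of the summed receptor level, followed by Tnfrsf1a and Ltbr with between 19.4% and 20.3% each. After treatment, Tnfrsf19 held between 1.55% and 1.65%, Tnfrsf1a and Ltbr held between 34.1% and 36.6% each, and Tnfrsf1b was next with between 10.2% and 10.4%. In ECs, Tnfrsf12a was first with between 33.5% and 34.6%, and Tnfrsf19 held no more than 0.0521%. The summed receptor level, 465 ± 14.7 CPM per kb in the controls, was 395 ± 18.2 CPM per kb after treatment, and 325 ± 5.41 CPM per kb in ECs (SD, n = 3). Without Tnfrsf19, the sum was 297 ± 13.6 CPM per kb in the controls and 388 ± 18.0 CPM per kb after treatment, the opposite order. These sums describe the members and were not tested.

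**Figure D4:**
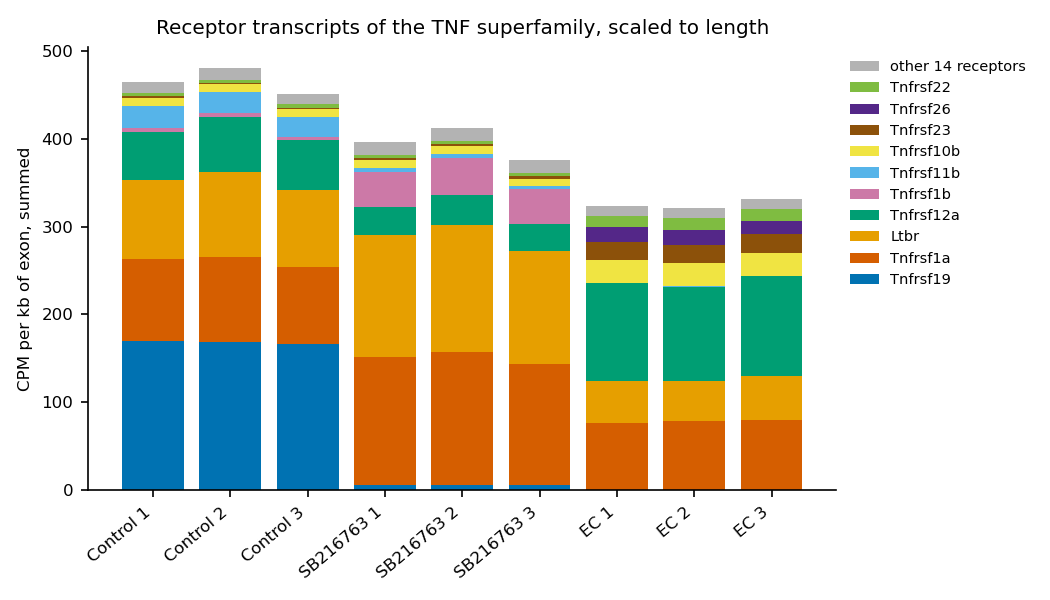
Summed levels of the 24 receptors in each library, in CPM per kb of exon, stacked by gene with 10 chosen receptors drawn singly and the others combined. The block of Tnfrsf19 takes up between 35.0% and 36.8% of the control bars and no more than 0.0521% of the EC bars, where Tnfrsf12a forms the largest block.

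In the comparison of control osteoblasts with ECs, 10 of the 24 members tested were higher in osteoblasts and 11 were higher in ECs, against 37.9% and 39% of all genes. At the fold threshold, 5 were higher in osteoblasts, where 9.87% of all genes were, and 6 were higher in ECs, where 13.5% of all genes were. Between treated osteoblasts and ECs, 13 members were higher in osteoblasts and 9 in ECs, against 38.3% and 40.3% of all genes, and 7 and 6 passed the fold threshold, against 10.3% and 15%. These comparisons share the EC libraries, and the comparison of treated with control osteoblasts shares the control or treated libraries with them. The same 6 members were past the fold threshold on the EC side in both comparisons, namely Cd40, Tnfrsf11a, Tnfrsf21, Tnfrsf23, Tnfrsf26, and Tnfsf10. Of these, Cd40, Tnfrsf11a, Tnfrsf26, and Tnfsf10 had no more than 7 counts in any MC3T3 library. They passed the filter on low counts only through their EC level, so their calls on this side were nearly fixed in advance. On the osteoblast side, no EC library held more than 7 counts of Tnfrsf1b, Tnfrsf13c, Tnfrsf18, or Ngfr. Any calls of these genes above ECs were nearly fixed in the same way.

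Decoy receptors for TRAIL and a neighboring receptor gene were higher in ECs. Tnfrsf26, Tnfrsf22, and Tnfrsf23 follow each other within 78.2 kb of chromosome 7, from 143607659 to 143685872. Tnfrsf26 was at 52.4, 53.2, and 50.4 CPM in ECs and had between 1 and 7 counts in each MC3T3 library. Tnfrsf23 was at 82.4, 84.2, and 82.7 CPM in ECs, while the controls had 7.14 ± 0.531 CPM and treated osteoblasts had 9.53 ± 0.480 CPM (SD, n = 3). Tnfrsf22 was at 55.3, 57.4, and 55.9 CPM in ECs, and the controls had 15.7 ± 1.38 CPM (SD, n = 3). All 3 were higher in each EC library than in any MC3T3 library. The log2 fold changes between control osteoblasts and ECs were -9.39 for Tnfrsf26, -3.53 for Tnfrsf23, and -1.85 for Tnfrsf22 (edgeR-adjusted p = 1.48e-18, 9.51e-18, and 4.73e-14). The 3 genes are related in sequence, so reads shared between them could not be assigned with certainty.

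TRAIL itself was an EC transcript. Tnfsf10, which encodes TRAIL (chromosome 3, 27317028 to 27342427), was at 9.80, 10.5, and 9.64 CPM in ECs and had between 1 and 6 counts in each MC3T3 library. Its signaling receptor Tnfrsf10b was at 142, 143.5, and 141 CPM in ECs, above all MC3T3 libraries. The log2 fold change between control osteoblasts and ECs was -7.28 for Tnfsf10 and -1.55 for Tnfrsf10b (standard errors 0.21 and 0.05, edgeR-adjusted p = 1.26e-14 and 1.92e-14). Between treated and control osteoblasts, Tnfsf10 had an interval of -0.54 to 1.91 on the log2 scale, which its low counts leave wide.

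Cd40, a receptor known from B cells and activated endothelium, was at 2.20, 2.41, and 2.595 CPM in ECs and had 0 counts in all 6 MC3T3 libraries. ECs were at least 23.0-fold higher than the controls and at least 27.9-fold higher than treated osteoblasts, taking 3 counts in the shallowest library of the lower group as its limit (edgeR-adjusted p = 3.05e-09 and 5.98e-09). Tnfrsf21 was at 12.5, 13.4, and 12.95 CPM in ECs, above its levels of 2.37 ± 0.286 CPM in the controls and 3.03 ± 0.244 CPM after treatment (SD, n = 3). The costimulatory ligands Tnfsf9 (4-1BB ligand) and Tnfsf18 (GITR ligand) had 0 counts in the MC3T3 libraries and between 6 and 24 and between 7 and 15 counts in the EC libraries. Of 5 leukocyte and myeloid markers, Cd68 and Csf1r were above the floor in every EC library, and the sum of all 5 was between 46.7 and 48.9 CPM, against at most 2.18 CPM in MC3T3 libraries, nearly all of it Cd68 at 46.6 ± 0.986 CPM (SD, n = 3). Ptprc, the marker of all leukocytes, had 3, 6, and 1 counts in ECs and Adgre1 had 1, 1, and 2 counts. Of the lymphocyte markers, Cd3e and Nkg7 had 0 counts in ECs, and Cd79a, a gene of B cells, had 2, 8, and 9 counts in ECs and no more than 3 in any MC3T3 library. The part of such cells in the level of Cd40 was not tested, and no lung epithelium marker was above the floor in every EC library.

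On the osteoblast side, Tnfrsf19, Tnfrsf1b, Tnfrsf11b, and Tnfrsf18 were past the fold threshold against ECs in both control and treated cells. Tnfrsf18 was at 0.410, 0.291, and 0.521 CPM in the controls and 0.373, 0.261, and 0.626 CPM after treatment, and had 1, 2, and 0 counts in ECs. By total counts, the controls exceeded ECs by 15.4 times, with a 95% counting interval of 5.03 to 77.1. When treated osteoblasts and ECs were fitted without the controls, Tnfrsf18 did not pass the filter on low counts and was not tested. Tnfrsf14 was at 3.78, 3.59, and 3.72 CPM in the controls, 5.28, 5.63, and 4.85 CPM after treatment, and 1.37, 0.792, and 0.904 CPM in ECs. It exceeded ECs by a log2 fold change of 1.82 in the controls and 2.33 after treatment (edgeR-adjusted p = 2.20e-08 and 6.55e-10). Ngfr in the controls, with 14 counts in all against 2 in ECs, had an adjusted p of 0.0174 in the edgeR fit, and without EC replicate 2 it passed (edgeR-adjusted p = 0.00161).

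Known pairs of ligand and receptor were set side by side, with more than 3 counts in every library of a group taken as present. Of 23 pairs, both partners were present for 1 in the controls, 1 in treated osteoblasts, and 5 in ECs. TWEAK with Fn14 was the pair present in all 3 groups. ECs also held TRAIL with Tnfrsf10b, TRAIL with OPG, lymphotoxin β with its receptor, and 4-1BB ligand with 4-1BB, although OPG, Ltb, Tnfsf9, and Tnfrsf9 were each under 1 CPM there. In the controls, 15 pairs had the receptor alone and 2 had the ligand alone, and after treatment these numbers were 15 and 5. The added pairs with the ligand alone are all of Tnfsf13b, which had 9, 3, and 5 counts in the controls and 7, 7, and 14 after treatment. It changed state through the control library with 3 counts, and it did not pass the filter on low counts. The pair of Tnfsf13b with Tnfrsf13c had the receptor alone in the controls and lost it after treatment. Tnfsf4 with Tnfrsf4 gained its receptor, which had 2 counts in 1 control library. The 15 pairs with the receptor alone are therefore not the same pairs in both groups. The pairs describe transcripts in a group and not signaling.

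Genes of the pathway downstream of these receptors were taken from lists written by hand. Traf5, Traf4, Tnfaip3, Nfkbia, Nfkb2, Vcam1, and Csf1 did not pass the fold threshold and are named because of their values. Of 30 adaptors and early signaling genes, 14 were higher and 11 were lower after treatment, beside 32.9% and 32% of all genes. Of these, 0 passed the fold threshold, where 3.81% of all genes were higher and 5.84% were lower. The median log2 fold change was 0.01, equal to that of all genes at 2 decimals. Traf5, an adaptor of the TRAF-binding receptors, went from 11.4 ± 0.525 to 28.3 ± 1.56 CPM, Traf4 from 88.8 ± 4.57 to 51.6 ± 0.660 CPM, and Tnfaip3 (A20, a brake on NF-κB) from 14.1 ± 0.730 to 55.2 ± 0.711 CPM (SD, n = 3). All 3 passed the test, and Tnfaip3 had a log2 fold change of 1.97. Ripk3 fell, with a log2 fold change of -1.80, and Cflar rose, with 1.10. Of 10 NF-κB subunits and inhibitors, 4 were higher and 2 were lower, near the shares of 32.9% and 32% over all genes, and the median log2 fold change was 0.12. Nfkbiz, an NF-κB cofactor, passed the fold threshold, from 4.25 ± 0.357 to 18.6 ± 1.52 CPM (SD, n = 3; log2 fold change 2.15, edgeR-adjusted p = 1.23e-12). Rel, an NF-κB subunit, fell from 31.2 ± 1.39 to 8.62 ± 0.719 CPM (SD, n = 3), a log2 fold change of -1.86 (edgeR-adjusted p = 4.37e-12). Nfkbia, the inhibitor IκBα, rose by 0.46 on the log2 scale, and Nfkb2 fell by 0.30.

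Of 18 TNF-responsive transcripts tested, 8 were higher after treatment and 6 were lower, beside 32.9% and 32% of all genes, and their median log2 fold change was 0.17. At the fold threshold, 1 was higher and 4 were lower, against 3.81% and 5.84% of all genes. The chemokine genes Ccl2 and Ccl7 fell, Ccl2 from 6.68 ± 0.726 to 0.383 ± 0.0521 CPM and Ccl7 from 1.15 ± 0.188 CPM to 2, 2, and 1 counts (SD, n = 3). Tnfaip6 (TSG-6, a hyaluronan-binding protein) went from 4.82 ± 0.118 to 1.10 ± 0.133 CPM. Icam1, a leukocyte adhesion molecule, had 7, 7, and 3 counts in the controls and 0 in the treated libraries, and Cxcl5 had 0 counts in the controls and 3, 8, and 3 in the treated libraries. Vcam1, another adhesion molecule, rose from 69.85 ± 0.384 to 212 ± 7.24 CPM (SD, n = 3), a log2 fold change of 1.60 (edgeR-adjusted p = 1.73e-14). When only these 2 groups were fitted, Icam1 and Cxcl5 did not pass the filter on low counts, which left 3 calls. Against ECs, 12 of the 18 were lower and 5 were higher in the controls, where 39% and 37.9% of all genes were. In treated osteoblasts, 13 were lower and 5 were higher than in ECs, where 40.3% and 38.3% of all genes were. Icam1, at 2.82 ± 0.178 CPM in ECs (SD, n = 3), was among those lower in both, and Lif and Mmp9 were higher past the fold threshold in both.

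Among 9 tested genes linked to osteoclast regulation, 3 were higher and 4 were lower after treatment, beside 32.9% and 32% of all genes, with a median log2 fold change of 0.06. At the fold threshold, 1 was higher and 2 were lower, where 3.81% and 5.84% of all genes were. Pth1r, the parathyroid hormone receptor through which osteoblast-lineage cells are known to be driven to make RANKL, went from 384 ± 3.39 to 34.0 ± 2.71 CPM (SD, n = 3), a log2 fold change of -3.50 (edgeR-adjusted p = 4.41e-17). Il34, a ligand of the CSF1 receptor, rose from 0.927 ± 0.216 to 4.39 ± 0.251 CPM, and Csf1 itself rose from 359 ± 6.73 to 653 ± 21.9 CPM (SD, n = 3). Ctsk rose, with a log2 fold change of 1.02, while Vdr and Sema3a fell, with -1.48 and -1.06. Il11, a cytokine of the interleukin 6 family, had 10, 14, and 8 counts in the controls and 0, 3, and 0 in the treated libraries. It did not pass the filter on low counts without control replicate 1, control replicate 2, EC replicate 1, or EC replicate 3. The same held when only these 2 groups were fitted, and each of these fits left 2 genes past the fold threshold in place of 3.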

How the data were processed

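RNA-Seq was performed on 9 libraries, 3 each of control MC3T3 cells, SB216763-treated MC3T3 cells, and ECs, with groups and replicate numbers taken from the labels. The authors deposited raw counts of reads per gene, with no normalization. STAR 2.5.3a and the GRCm38 build are named in the submitters' processing notes, and the annotation release and strand setting are not given in the sources used here, so genes that overlap on opposite strands may share reads. Gene models of GENCODE M21 were found for 50462 of the 50686 genes.

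All 9 libraries were fitted together in R 4.3.3 with edgeR 4.0.16, after filterByExpr with a minimum count of 10 and TMM normalization, with quasi-likelihood tests and Benjamini-Hochberg adjustment over 15531 genes. The prior count was 0.125. The thresholds, an adjusted p of 0.01 and an absolute log2 fold change of 2, follow the study's methods. Intervals of count ratios are exact and cover counting error only. limma 3.58.1 (voom), DESeq2 1.42.0, other normalizations and filters, a replicate block, and leaving out each library were alternatives. The edgeR, limma, and DESeq2 steps were tested on simulated data.

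All members are accounted for. Values in every library are given for Tnfsf11, Tnfrsf11b, Tnfrsf19, members past the fold threshold between treated and control cells, and up to 10 others past it against ECs. Of the pathway lists, those past the fold threshold between treated and control cells were to be named. The members and lists were chosen with earlier results of these data known. Tnfsf13os, an antisense gene, was left out. A planned log2 ratio of Tnfsf11 to Tnfrsf11b was not computed, since Tnfsf11 was at or under the floor in every library. Replicate numbers did not pair the libraries, and replicates differed by more than sampling noise (chi-square per gene from 3.05 to 115).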

Additional observations from a re-analysis of the deposited data

How the results depend on the processing

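Counts of members held within 1.5 times their value under every alternative run, and 1256 of the values of single genes kept their direction and their side of the threshold, while 17 lost a call, 9 gained a call, and 7 changed sign. The sign changes were between treated and control osteoblasts, in genes that did not pass as reported. Scaling by library size only, which moved the median of all genes to 0.22, put Tnfrsf10b at 0.15 and Tnfrsf22 at 0.0899. Leaving out each library in turn, Tnfrsf11a ranged from -2.49 to 0.0736, Tnfrsf18 from -0.31 to 0.35, and Tnfrsf26 from -1.02 to 0.057. That scaling also raised the count of adaptor and early signaling genes past the fold threshold from 0 to 1 (Tnfaip3). When the fold threshold was lowered to 1 on the log2 scale, the counts past the threshold between treated and control cells were 4 adaptor and early signaling genes, 2 NF-κB genes, 10 TNF-responsive transcripts, and 6 genes linked to osteoclast regulation. The share of all genes past this lowered threshold was not computed, so these counts show no response of the lists beyond that of other genes. Fitting only the 2 groups compared left 3 TNF-responsive transcripts.

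Leaving out each library in turn, adaptor and early signaling genes past the fold threshold numbered 0 to 1, NF-κB genes 1 to 1, TNF-responsive transcripts 5 to 6, and genes linked to osteoclast regulation 2 to 3. Between treated and control cells, 10 to 12 members were higher and 5 to 6 lower, with 4 to 4 and 3 to 3 past the fold threshold. Between controls and ECs these were 10 to 11 and 10 to 13, with 5 to 6 and 6 to 8, and between treated cells and ECs 12 to 13 and 9 to 11, with 7 to 7 and 6 to 8. The replicate numbers showed no pairing, with mean correlations of same-numbered deviations of 0.0691, -0.00272, and -0.0152. With the replicate block, members higher and lower were 11 and 5, 10 and 11, and 12 and 9 in the 3 comparisons, the lost call being Tnfsfm13 against ECs, and 4 and 3, 5 and 6, and 7 and 6 passed the fold threshold.

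Against ECs, the calls of Tnfsf13 in controls and Tnfsfm13 in treated cells were lost under DESeq2 and without single libraries. The call of Tnfsf12 in controls was lost under DESeq2 (log2 fold change 0.28, DESeq2-adjusted p = 0.01004). With scaling by library size only, the calls in controls of Tnfsf12 (0.15, edgeR-adjusted p = 0.0534) and Tnfrsf1a (0.12, edgeR-adjusted p = 0.0185) were lost. DESeq2 and the fit with no filter also called Tnfsf9 and Tnfsf18, and Tnfsf15 in controls, and the fit with no filter called Tnfsf15 between treated and control cells too. The ratio of Tnfsf11 to Tnfrsf11b and its alternatives were not run. Counts near the floor limit what can be said of most ligands.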

Other observations

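Superfamily genes whose symbols fall outside the naming rule were Eda, Edar, Eda2r, Cd27, Cd70, Cd40lg, Relt, Rell1, and Rell2, of which 5 of 9 could be tested. Between treated and control osteoblasts, 1 was higher and 2 were lower, beside 32.9% and 32% of all genes. At the fold threshold, 0 passed, where 3.81% of all genes were higher and 5.84% were lower. The median log2 fold change was -0.11, and 0.01 over all genes. Rell1, a RELT-like membrane protein, went from 52.5 ± 1.97 to 34.9 ± 1.87 CPM, and Relt itself, a TRAF-binding receptor, from 5.58 ± 0.577 to 3.85 ± 0.692 CPM (SD, n = 3). Both fell in edgeR's quasi-likelihood test, by 0.59 and 0.54 on the log2 scale. Rell2 rose, with a log2 fold change of 0.88, from 0.354 ± 0.0432 to 0.653 ± 0.0697 CPM (SD, n = 3).

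Eda2r, the receptor of ectodysplasin A2, did not pass between treated and control osteoblasts, with 47.7 ± 1.12 and 44.2 ± 0.375 CPM, while ECs held 137 ± 9.48 CPM (SD, n = 3). Its log2 fold change between controls and ECs was -1.52. Its ligand gene Eda had no more than 2 counts in any library. Cd27 had 38, 11, and 29 counts in ECs and no more than 10 in any MC3T3 library, while Cd70, which encodes its ligand, and Cd40lg, which encodes the ligand of Cd40, had 0 counts in all 9 libraries. Edar had no more than 5 counts in any library.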
